A study of Danio rerio with 14 samples.

Results

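Cranial *mylz2*+ muscle cells of *psmb1* mutant zebrafish larvae were compared with those of wild-type/heterozygous larvae by RNA-Seq at 72 hours post fertilization (hpf). These libraries were chosen by cell type, which gave 7 of the 14 libraries of the series, 3 from mutants (replicates 1, 2 and 4) and 4 from wild-type/heterozygous larvae (replicates 1 to 4). Mutants were *psmb1*-/- for the hi2939 allele, a retroviral insertion in the first intron of *psmb1*, and the comparison group pooled *psmb1*+/+ with *psmb1*+/- larvae. All larvae carried the mCherry reporter driven by the *mylz2* promoter, *mylz2* being a fast muscle myosin light chain gene. Each library held 1500 sorted cells from 20 to 25 dissected heads, so a library is a pool of larvae, and an effect of carrying a single mutant allele would sit within the comparison group. The whole head was dissociated before the sort, and the sort did not separate 1 cranial muscle from another.

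The proteasome degrades proteins tagged with ubiquitin. Its barrel-shaped 20S core holds the peptidase sites, and its 19S regulator recognizes, unfolds and deubiquitinates the substrate. *psmb1* encodes a non-catalytic beta subunit of the core. In mammalian cells a shortfall of proteasome activity is known to raise transcription of proteasome subunit genes through the factor encoded by *nfe2l1*. In skeletal muscle the ubiquitin-proteasome system also turns over sarcomere proteins, the filaments of myosin and actin whose sliding makes the fibre contract.

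The counts summed to 84281946, 103563447 and 83947537 in mutant replicates 1, 2 and 4, against 69357630 to 78521766 in wild-type/heterozygous libraries. Levels are in CPM, the counts of a gene for each 1000000 counts in its library. The floor, set at 3 counts, was 0.029 to 0.0433 CPM, and it covers counting error only since amplified reads are not independent molecules. Unless said otherwise, levels are scaled by the trimmed mean of M values (TMM), without a correction for gene length, so an order of genes by CPM also carries their length. The TMM factors were 1.2, 1.27 and 1.05 in mutants, against 0.805 to 0.926 in wild-type/heterozygous libraries. Over all genes tested the log2 fold change had a median of 0.01 with these factors and of 0.41 with the library totals alone. A log2 fold change is that of mutants over wild-type/heterozygous libraries throughout. Its standard error (SE) is approximate, being the size of the change over the root of the F statistic of edgeR's quasi-likelihood test. A gene is called at an adjusted p under 0.05 over all 20413 genes tested. The muscle marker list held 8.63% to 10.5% of the counts in mutants and 13.7% to 14.6% in wild-type/heterozygous libraries. Muscle transcripts were thus abundant in every library, but their share was lower in mutants, without overlap. Of the 14 markers tested 11 were called lower (78.6%, beside 11.6% of all genes tested) and none higher. Their median log2 fold change was -0.96, and -0.56 with library totals. Fewer cells of a type and less RNA per cell cannot be told apart in such bulk samples. Mutant replicate 4 also held *myl7*, a heart myosin light chain gene, at 42.8 CPM of the library total, against 0 CPM in the other mutants and at most 0.119 CPM in wild-type/heterozygous libraries.

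*psmb1* itself (ENSDARG00000009640) was at 85.1, 68.1 and 83.4 CPM in mutant replicates 1, 2 and 4, against 124, 164, 147 and 134 CPM in wild-type/heterozygous replicates 1 to 4. Every mutant library lay below every wild-type/heterozygous one. Expression in mutants was 1.8-fold lower (log2 fold change -0.85, SE 0.138, adjusted p = 0.00161), and the call held in each fit that left out 1 library. The transcript was lowered and not lost in these cells, and no library's level went against its label.

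Abundant genes (a mean of at least 1000 CPM over the 7 libraries) and mid-level genes (100 to under 1000 CPM) both changed widely, and more of them fell than rose. Among 102 abundant genes, 14 were called higher in mutants (13.7%) and 60 lower (58.8%), with a median log2 fold change of -0.67. Among 1094 mid-level genes, 223 were called higher (20.4%) and 471 lower (43.1%), with a median of -0.37. Over all genes tested, 2189 were called higher (10.7%) and 2364 lower (11.6%). The balance depended on the scaling. With library totals, 22 abundant genes were called higher and 44 lower, whereas 390 mid-level genes were called higher and 278 lower, so that the share of higher among the called mid-level genes was 58.4% and not 32.1%. For abundant genes that share was 33.3% and not 18.9%, and for all genes tested 79.5% and not 48.1%. Without mutant replicate 4, 79 abundant and 713 mid-level genes were called, and no count of filament, Z-disc or calcium genes called lower moved by over 1.5 times. Of the 14 abundant genes called higher, 11 were on a gene list of chaperones, ubiquitin and its handling, or cell cycle arrest and apoptosis. Of the 60 called lower, 48 were on lists of the sarcomere, calcium handling, the Z-disc or energy metabolism. Abundant genes that were not called sat on these lists too, among them *ckma*, *eno3*, *mt-co1* and *hsp70l*. The share of all 102 abundant genes on the lists was not counted. Membership of a list is therefore not shown to mark the called genes.

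The proteasome genes rose together. All 23 tested members of the 19S regulator list were called higher in mutants, with log2 fold changes between 1.07 and 1.90 and a median of 1.32. *psmd1* (ENSDARG00000003189), which encodes the largest scaffold subunit of the regulator, was at 1668, 1590 and 1651 CPM in mutants, against 506, 486, 530 and 530 CPM in wild-type/heterozygous libraries (3.19-fold higher, log2 fold change 1.67, SE 0.101, adjusted p = 4.08e-05). The mutant values lay above 1500 CPM and the wild-type/heterozygous values near 500 CPM. *psmd13* and *psmd7*, which encode subunits of the lid, were 3.38-fold and 3.09-fold higher. *psmd11* (ENSDARG00000060150, which shares its symbol with a second identifier) was at 211, 243 and 251 CPM in mutants, against 50.9, 54.9, 82.3 and 63.6 CPM in wild-type/heterozygous libraries, a 3.73-fold rise that placed it among the 10 largest in the mid-level genes.

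Of the 22 identifiers on the 20S core list, 18 passed the filter on low counts. Among these, 14 were called higher, *psmb1* was the single member called lower, and 3 were not called (*psmb10*, *psmb12* and *psmb13a*, all outside the mid-level and abundant tiers). The median log2 fold change was 1.51, against 0.01 for all genes tested. *psmb2* (ENSDARG00000031511), which encodes a beta subunit, had the largest rise of those called, at 398, 405 and 478 CPM in mutants, against 89.4, 124, 120 and 95 CPM in wild-type/heterozygous libraries (3.99-fold, log2 fold change 2.00, SE 0.146, adjusted p = 4.23e-05). The catalytic subunit genes *psmb5*, *psmb6* and *psmb7* were 2.94-fold, 2.81-fold and 2.76-fold higher. *psmb7*, the core gene with the highest CPM, was at 1329, 1433 and 1612 CPM in mutants, against 470, 582, 591 and 467 CPM in wild-type/heterozygous libraries. *psmb4* was 3.39-fold higher. *psmb1* thus moved against the genes of the other core subunits in the same libraries.

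Among genes that assemble, activate or cap the proteasome, 13 of 18 tested were called higher (72.2%, beside 10.7% of all genes tested) and none lower. The list's median log2 fold change was 1.17. The activator genes *psme1* (ENSDARG00000002165) and *psme2*, which interferon induces in mammals, had the largest rises of this list. *psme1* was at 81.3, 102 and 101 CPM in mutants, against 9.85, 15, 9.18 and 6.91 CPM in wild-type/heterozygous libraries (9.27-fold). *psme2* was 7.67-fold higher and *psmd10*, an assembly chaperone gene, 5.38-fold. *usp14*, which encodes a deubiquitinase bound to the regulator, was 2.72-fold higher, and *ecpas* (ENSDARG00000061952), a proteasome adaptor gene outside the list, was at 275, 262 and 245 CPM in mutants, against 60.4, 60.2, 62.4 and 66.3 CPM in wild-type/heterozygous libraries (4.19-fold). For *nfe2l1* and *nfe2l1b* the log2 fold changes were 0.40 (SE 0.146, adjusted p = 0.0768) and 0.34 (SE 0.151, adjusted p = 0.148), and neither was called, although both were with library totals (0.81 and 0.75). With the count test DESeq2 *nfe2l1* was called (adjusted p = 0.0381) and *nfe2l1b* was not (0.137). *ddi2*, whose mammalian product cleaves that factor, was 2.12-fold higher. The direction of the 3 proteasome lists held under every scaling.

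The list of ubiquitin, p97 and muscle ubiquitin ligase genes was split, with 8 of 24 tested called higher (33.3%) and 9 lower (37.5%). These shares stand beside 10.7% and 11.6% of all genes tested, and beside 20.4% and 43.1% of mid-level genes. *vcp* (ENSDARG00000020008), which encodes the p97 ATPase that pulls ubiquitinated proteins out of membranes and complexes, had the largest rise of all abundant genes. It was at 1739, 1781 and 1755 CPM in mutants, against 656, 604, 670 and 650 CPM in wild-type/heterozygous libraries (2.73-fold, log2 fold change 1.45, SE 0.101, adjusted p = 4.08e-05), with a spread between replicates far below the difference. Its cofactor genes *nploc4* and *ufd1* were 3.59-fold and 3.44-fold higher, and *uba1* (ENSDARG00000037559), the ubiquitin-activating enzyme gene, was at 997, 968 and 1071 CPM in mutants, against 283, 280, 367 and 309 CPM in wild-type/heterozygous libraries. The polyubiquitin genes listed as *ubb* were 1.99-fold (ENSDARG00000002369) and 1.7-fold (ENSDARG00000093313) higher, and how reads of such repeated sequences were shared between them is uncertain. *uchl1* (ENSDARG00000026871), a ubiquitin hydrolase gene, was at 219, 258 and 264 CPM in mutants, against 32.2, 63.1, 66.6 and 47.6 CPM in wild-type/heterozygous libraries (4.72-fold). The 9 called lower were muscle ubiquitin ligase and adaptor genes, namely *trim63a*, *trim63b*, *trim54*, *trim55*, *fbxo32* and both identifiers each of *klhl40* and *klhl41*. *fbxo32* and the *trim63* genes are known as the atrophy ligases atrogin and MuRF of mammalian muscle. The log2 fold change of *fbxo32* was -0.95 and those of *trim63a* and *trim63b* were -0.66 and -1.10. With library totals the calls of *fbxo32* and *trim63a* were lost (-0.54 and -0.26), and that of *fbxo32* also without mutant replicate 2 (adjusted p = 0.0824). The list's median was -0.01, and 0.38 with library totals.

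Cytosolic chaperones, which fold new proteins and hold misfolded ones, were called higher for 28 of 40 tested genes (70%) and lower for 4 (10%). Of all genes tested, 10.7% were called higher and 11.6% lower. The chaperone list had a median log2 fold change of 0.68. The largest rise was that of an *hspa8* gene (ENSDARG00000037403), a constitutive member of the Hsp70 family, at 881, 1067 and 1219 CPM in mutants, against 98.1, 169, 190 and 137 CPM in wild-type/heterozygous libraries (7.12-fold, log2 fold change 2.83, SE 0.216, adjusted p = 4.35e-05). The other *hspa8* identifier (ENSDARG00000068992) was 1.34-fold higher, a call lost without wild-type/heterozygous replicate 1, 3 or 4 or mutant replicate 4 (adjusted p up to 0.0743). *hsp90aa1.1* (ENSDARG00000010478), a chaperone gene that zebrafish muscle uses to fold myosin, was at 13450, 15374 and 15691 CPM in mutants, against 5658, 6421, 7019 and 6403 CPM in wild-type/heterozygous libraries (2.33-fold) and gained more CPM than any other called gene. *hsph1* and *hspa4l*, which encode nucleotide exchange factors of Hsp70, were 4.46-fold and 4.63-fold higher. *cct3*, of the chaperonin that folds actin and tubulin, was 2.66-fold higher, and *nudc* (ENSDARG00000104837), which encodes a co-chaperone of Hsp90, was at 273, 307 and 316 CPM in mutants, against 49.9, 61.3, 71.3 and 53.6 CPM in wild-type/heterozygous libraries (5.07-fold).

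Genes of the heat-inducible Hsp70 type were at high CPM in both genotypes. By the paper's methods, heads were dissociated with shaking at a temperature above that at which the embryos were raised. Whether these levels, or those of other genes, reflect that step was not tested. *hsp70l* was at 9603, 12944 and 12096 CPM in mutants, against 9597, 9111, 10505 and 10176 CPM in wild-type/heterozygous libraries, ranges that overlap, and was not called (log2 fold change 0.23, SE 0.134, adjusted p = 0.279). *hspa1b* (ENSDARG00000056210) was 2.06-fold higher. *hsp70.3* and *hspa2* were 1.36-fold and 1.34-fold higher, but *hsp70.3* was no longer called without wild-type/heterozygous replicate 4 (adjusted p = 0.0755) or mutant replicate 4 (0.0513), nor *hspa2* without wild-type/heterozygous replicate 1 (0.0528) or 4 (0.0735). With library totals *hsp70l* was called too (log2 fold change 0.63). These genes are close copies of each other, so the share of reads given to each is uncertain. The 4 chaperone genes called lower were *dnajb6b*, *hspb7*, *hspb2* and 1 *smyd1* gene (ENSDARG00000009280), all of which are known from muscle. The myosin chaperone gene *unc45b* was 1.6-fold higher.

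**Figure D1:**
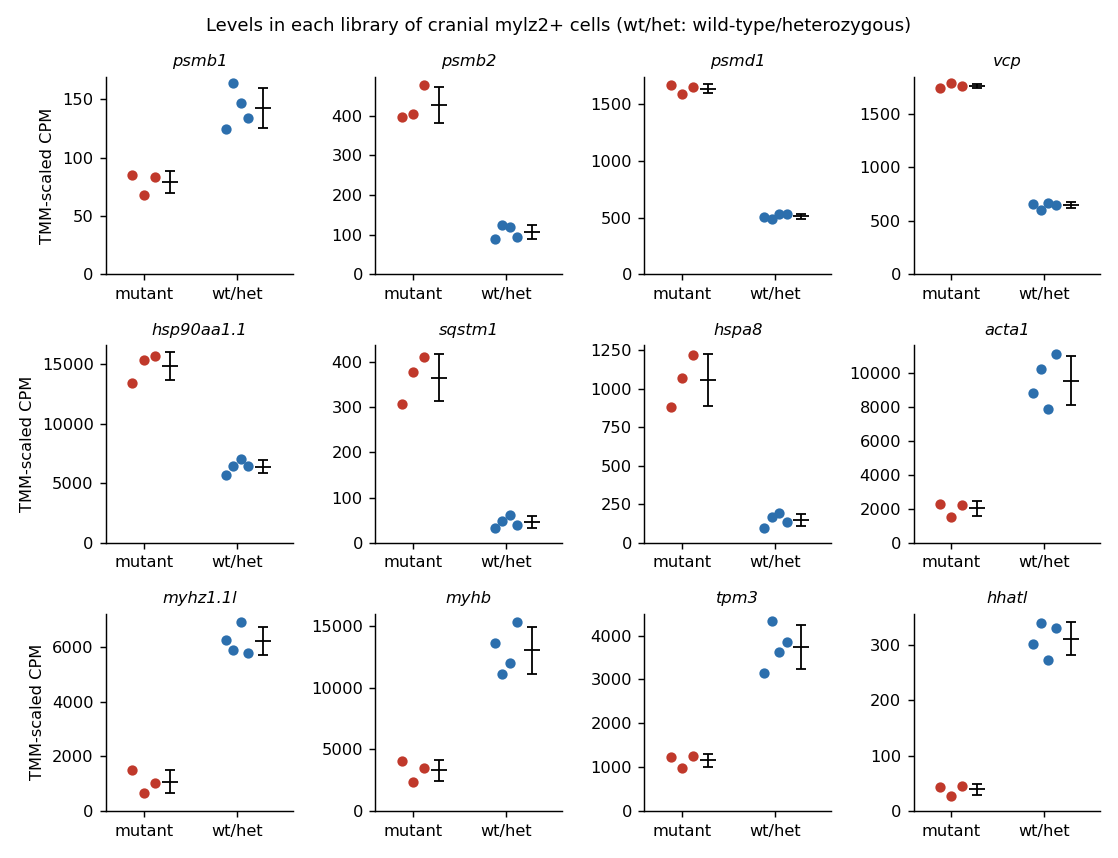
TMM-scaled CPM (vertical axes, from 0) of 12 genes in each of the 3 *psmb1* mutant libraries (red, left) and the 4 wild-type/heterozygous libraries (blue, right), with the mean and SD beside each group. The panels of *hspa8* and *acta1* show ENSDARG00000037403 and ENSDARG00000036371. In each of the 12 panels the libraries of the genotypes do not overlap, with *psmb1* and the 5 muscle genes lower in mutants and the other 6 higher. Most of these genes were picked from called genes without overlap, so its absence there follows from the choice. Over all genes tested the genotypes did not overlap for 6967 of 20413.

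The largest rise of any mid-level gene was that of *sqstm1* (ENSDARG00000075014), which encodes p62, a receptor that carries ubiquitinated proteins to autophagy. It was at 308, 378 and 410 CPM in mutants, against 32.2, 48.9, 61.9 and 39.1 CPM in wild-type/heterozygous libraries (8.03-fold, log2 fold change 3.01, SE 0.214, adjusted p = 4.08e-05). Of 24 tested autophagy and lysosome genes 13 were called higher (54.2%) and 2 lower (8.33%), beside 10.7% and 11.6% of all genes tested. The median was 0.53. The receptor gene *optn* was 2.91-fold higher, and the lysosomal protease genes *ctsd* and *ctsb* were 2.5-fold and 3.93-fold higher. *map1lc3b* and *ulk1a* were the members called lower, at log2 fold changes of -0.51 and -0.72, and neither was called with library totals (-0.10 and -0.32).

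Oxidative stress genes were called higher for 13 of 22 tested (59.1%, beside 10.7% of all genes tested) and lower for none, with a median of 0.96. *hmox1* (ENSDARG00000027529), which encodes heme oxygenase, was at 16.8, 29.2 and 20.4 CPM in mutants, against 0.636, 5.93, 3.32 and 0.423 CPM in wild-type/heterozygous libraries (8.65-fold), with a wide spread among the wild-type/heterozygous libraries. *gstp1.2* (ENSDARG00000104068), a glutathione transferase gene, was at 219, 240 and 254 CPM in mutants, against 57.7, 48.6, 76.6 and 37.9 CPM in wild-type/heterozygous libraries (4.31-fold). *txn*, *gclm* and *keap1a* were 2.18-fold, 2.66-fold and 3.81-fold higher. Of the ferritin-like genes, *fthl31* was at 311, 382 and 422 CPM in mutants, against 29.8, 41.8, 92.6 and 23.8 CPM in wild-type/heterozygous libraries (7.9-fold) and *fthl27* was 3.77-fold higher. The ferritin heavy chain gene *fth1a* had a log2 fold change of 0.38 (adjusted p = 0.105) and was not called. It was called with library totals (0.78), without wild-type/heterozygous replicate 2 (0.49), or with at least 10 counts in every library (0.40). A replicate block by sample titles called it too (0.48).

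Of 16 tested genes of cell cycle arrest, apoptosis and the DNA damage response, 7 were called higher (43.8%) and 3 lower (18.8%). The median log2 fold change was 0.55, and 10.7% of all genes tested were called higher and 11.6% lower. With library totals 9 were called higher and 1 lower, and the median was 0.97. *ccng1* (ENSDARG00000076667), a cyclin G gene of the DNA damage response, was at 2543, 3034 and 3699 CPM in mutants, against 1122, 1506, 1313 and 1349 CPM in wild-type/heterozygous libraries (2.34-fold, log2 fold change 1.23, SE 0.153, adjusted p = 3.84e-04) and was the abundant gene with the largest rise after *vcp*. *tubb4b*, a tubulin gene on none of the lists, followed the chaperones and *ubb* at 1629, 1653 and 1826 CPM in mutants, against 1008, 1043, 1122 and 998 CPM in wild-type/heterozygous libraries (1.63-fold). *cdkn1a*, the cell cycle inhibitor gene, was 2.43-fold higher, *phlda3* 2.81-fold, and the caspase gene *casp8* 4.48-fold. A *rrm2* gene (ENSDARG00000078069), which encodes a ribonucleotide reductase subunit used in DNA synthesis, was 3.1-fold lower. *rps27l* was 2.31-fold higher and was the single ribosomal protein gene called higher.

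Genes of the unfolded protein response in the endoplasmic reticulum (ER) were mostly not called. Of 33 tested, 4 were called higher (12.1%) and 3 lower (9.09%), shares close to those of all genes, with a median log2 fold change of 0.16. With library totals 15 were called higher and none lower. *hspa5*, the main ER chaperone gene, was at 1356, 1511 and 1634 CPM in mutants, against 921, 916, 1026 and 970 CPM in wild-type/heterozygous libraries (1.57-fold), and *derl1*, which takes part in export of ER proteins for degradation, was 2.33-fold higher. *sdf2l1*, an ER chaperone gene, was 1.56-fold higher, a call lost without any single mutant library or without wild-type/heterozygous replicate 1 or 4 (adjusted p up to 0.0933). *xbp1* and *herpud1* were called lower, at log2 fold changes of -0.57 and -0.64, and neither was called with library totals (-0.16 and -0.23). *ddit3* had a log2 fold change of 0.17 (SE 0.119, adjusted p = 0.363; 0.58 and called with library totals) and *atf4a* of -0.23 (SE 0.153, adjusted p = 0.36).

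The sarcomere genes fell. Of 19 tested fast thick filament genes 15 were called lower (78.9%) and none higher, with a median log2 fold change of -0.99, and of 25 tested thin filament genes 20 were called lower (80%) and none higher, with a median of -1.11. These shares stand beside 58.8% of abundant and 43.1% of mid-level genes, tiers that hold these same lists. With library totals 12 and 17 were called lower and the medians were -0.58 and -0.74. Among the thick filament genes, *myhz1.1l* (ENSDARG00000102414), a myosin heavy chain gene outside the list, was at 1509, 666 and 1027 CPM in mutants, against 6256, 5897, 6908 and 5784 CPM in wild-type/heterozygous libraries (5.82-fold lower, log2 fold change -2.54, SE 0.25, adjusted p = 1.17e-04). *myhb* (ENSDARG00000001993), another fast myosin heavy chain gene, was at 4038, 2338 and 3498 CPM in mutants, against 13643, 11106, 12033 and 15378 CPM in wild-type/heterozygous libraries (3.96-fold lower). The myosin light chain gene *myl13* was 4.8-fold lower and the myosin-binding protein gene *mybpc2* 4.88-fold. *myhz2* (ENSDARG00000012944) was at 14892, 9916 and 12928 CPM in mutants, against 25710, 25031, 24115 and 24021 CPM in wild-type/heterozygous libraries (1.97-fold lower). *myl11* (ENSDARG00000053254), the regulatory light chain symbol under which *mylz2* is listed, was at 28708, 22626 and 33214 CPM in mutants, against 42132, 59138, 47410 and 43174 CPM in wild-type/heterozygous libraries (1.7-fold lower).

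In the thin filament, a skeletal actin gene, *acta1* (ENSDARG00000036371), was at 2295, 1499 and 2243 CPM in mutants, against 8815, 10239, 7878 and 11120 CPM in wild-type/heterozygous libraries (4.73-fold lower, log2 fold change -2.24, SE 0.194, adjusted p = 6.50e-05). A *tnni2* gene (ENSDARG00000045592), which encodes the inhibitory subunit of fast troponin, was 5.02-fold lower and the calcium-binding troponin gene *tnnc2.1* 4.27-fold. *actc1b* (ENSDARG00000099197), the actin gene with the most counts in this tissue, was at 56406, 50948 and 88989 CPM in mutants, against 106162, 118879, 101409 and 96489 CPM in wild-type/heterozygous libraries and lost the most CPM of any called gene. Mutant replicate 4 stood nearer to the wild-type/heterozygous libraries there, and the call of *actc1b* (log2 fold change -0.69, SE 0.198, adjusted p = 0.0302) was lost without any single library other than mutant replicate 4, with adjusted p up to 0.0981. It was lost with library totals too (-0.31, adjusted p = 0.0831). Close copies among the myosin, actin and *tnni2* genes share sequence, so their single values are uncertain.

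Some fast muscle genes were not called, and their values rested on mutant replicate 4. *myhz1.3* was at 2297, 1847 and 4756 CPM in mutants, against 3512, 2350, 2737 and 2635 CPM in wild-type/heterozygous libraries (log2 fold change 0.08, SE 0.288), and the fast tropomyosin gene *tpma* was at 2503, 2709 and 7656 CPM in mutants, against 3999, 3035, 2961 and 2536 CPM in wild-type/heterozygous libraries (log2 fold change 0.45, SE 0.351). The calcium-buffering parvalbumin gene *pvalb2* was at 2502, 2537 and 5678 CPM in mutants, against 2282, 3225, 2507 and 1971 CPM in wild-type/heterozygous libraries. None of the 3 was called, although *pvalb2* was with library totals (log2 fold change 0.89 in place of 0.52), and each was chosen after its values were seen. In all 3 mutant replicate 4 was the highest library of all 7, at more than 1.5 times the other mutants. Without it the log2 fold changes were -0.46 for *myhz1.3*, -0.29 for *tpma* and -0.00 for *pvalb2*, and none was called.

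Slow and cardiac isoform genes were called lower for 17 of 18 tested (94.4%) and higher for none, with a median log2 fold change of -1.56. For comparison, 58.8% of abundant genes, 43.1% of mid-level genes and 11.6% of all genes tested were called lower. With library totals 17 were again called lower. *tpm3* (ENSDARG00000005162), a slow tropomyosin gene, was at 1221, 984 and 1247 CPM in mutants, against 3143, 4332, 3617 and 3848 CPM in wild-type/heterozygous libraries (3.25-fold lower, log2 fold change -1.70, SE 0.151, adjusted p = 7.31e-05). The troponin gene *tnni1d* (ENSDARG00000073766) was at 104, 65.7 and 85.2 CPM in mutants, against 303, 610, 409 and 434 CPM in wild-type/heterozygous libraries (5.17-fold lower), *mybpc3* was 4.32-fold lower and a *tnni1* gene (ENSDARG00000000474) 13.5-fold. The slow myosin heavy chain genes *smyhc1* and *smyhc2* were 2.37-fold and 2.71-fold lower. A *myh6* gene (ENSDARG00000079564), the list's member with the most counts, was at 4727, 2762 and 2650 CPM in mutants, against 8383, 7630, 6620 and 7746 CPM in wild-type/heterozygous libraries. The *myl7* and *nppa* genes of the heart did not pass the filter.

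Genes of the Z-disc, costamere and cytoskeleton, which anchor the filaments, were called lower for 32 of 40 tested (80%), with a median of -1.0. The share called lower was 58.8% for abundant genes, 43.1% for mid-level genes and 11.6% for all genes tested. With library totals 22 were called lower and 1 higher, and the median was -0.59. *fhl2* (ENSDARG00000042018), a LIM domain protein gene, was at 1167, 958 and 1009 CPM in mutants, against 3151, 4333, 3333 and 3788 CPM in wild-type/heterozygous libraries (3.49-fold lower), and *fhl1* (ENSDARG00000071498) was 4.24-fold lower. *myoz3a* (ENSDARG00000067701), a Z-disc gene outside the list, was at 64.2, 39.3 and 48.6 CPM in mutants, against 313, 335, 283 and 266 CPM in wild-type/heterozygous libraries (5.91-fold lower). *pdlim5* (ENSDARG00000101777) was 5.07-fold lower, the Z-disc gene *nrap* 3-fold and the dystrophin gene *dmd* 1.94-fold, a call that library totals ended (-0.54, adjusted p = 0.0526). *csrp3* had a log2 fold change of -2.46 (SE 0.816, adjusted p = 0.0558) and was not called, at 0.218, 0.0909 and 1.05 CPM in mutants, against 1.48, 3.65, 2.54 and 2.29 CPM in wild-type/heterozygous libraries. It was called without mutant replicate 4 (-4.02), with DESeq2 (adjusted p = 0.00685) or with at least 10 counts in every library (0.0203).

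The largest fall of a mid-level gene was that of *hhatl* (ENSDARG00000005139), an acyltransferase-like gene of striated muscle, at 44.1, 27.6 and 44.8 CPM in mutants, against 302, 339, 273 and 330 CPM in wild-type/heterozygous libraries (8.01-fold lower, log2 fold change -3.00, SE 0.193, adjusted p = 4.08e-05). *nmrk2* (ENSDARG00000067848), which encodes a muscle kinase that makes an NAD precursor, was at 68.6, 47.2 and 74.4 CPM in mutants, against 315, 479, 414 and 365 CPM in wild-type/heterozygous libraries (6.2-fold lower), and *mustn1*, a small nuclear protein gene of muscle and skeleton, was 4.89-fold lower. Of genes without a symbol, ENSDARG00000112287 had the largest fall among abundant genes, at 351, 130 and 250 CPM in mutants, against 1861, 1151, 1953 and 1819 CPM in wild-type/heterozygous libraries (6.96-fold lower), and ENSDARG00000110596 was 4.67-fold lower.

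Calcium handling and the synapse with the nerve fell alongside the filaments. Of 26 tested genes of excitation-contraction coupling, by which the nerve impulse releases calcium, 20 were called lower (76.9%) and none higher. The median was -0.88, and 11.6% of all genes tested were called lower. With library totals 12 were called lower and the median was -0.49. *atp2a1* (ENSDARG00000020574), the calcium pump gene of fast muscle, was at 18076, 12757 and 19409 CPM in mutants, against 31690, 39335, 32928 and 33576 CPM in wild-type/heterozygous libraries (2.05-fold lower). *pvalb4* was 3.61-fold lower, the voltage sensor gene *cacna1s* (ENSDARG00000029457) 3.31-fold and the slow pump gene *atp2a2a* 3.01-fold. Of 12 neuromuscular junction genes 11 were called lower (91.7%), with a median of -1.25. With library totals 8 of these were called lower and the median was -0.84. *chrnd* (ENSDARG00000019342), an acetylcholine receptor subunit gene, was at 298, 235 and 231 CPM in mutants, against 594, 716, 614 and 709 CPM in wild-type/heterozygous libraries (2.59-fold lower), and the embryonic receptor subunit gene *chrng* was 4.5-fold lower. *colq*, which encodes the collagen tail of acetylcholinesterase, was 2.95-fold lower. *musk* (ENSDARG00000098764), which organizes the receptor clusters, was at 32.4, 28.4 and 10.6 CPM in mutants, against 68.5, 83.7, 77.4 and 85.5 CPM in wild-type/heterozygous libraries (3.31-fold lower), with mutant replicate 4 below the other mutants.

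Genes that set muscle identity fell as well. Of 27 tested myogenic regulators 15 were called lower (55.6%) and 1 higher, with a median of -0.96, and 11 were called lower with library totals. That share lies between the 43.1% of mid-level and the 58.8% of abundant genes, and above the 11.6% of all genes tested. The muscle marker list had the same median of -0.96, so the regulators are not shown to fall more than muscle genes at large. *myod1* (ENSDARG00000030110), the master regulator gene of myogenesis, was at 229, 197 and 199 CPM in mutants, against 318, 495, 380 and 425 CPM in wild-type/heterozygous libraries (1.94-fold lower). *tbx1* (ENSDARG00000031891), which is needed for head muscle, was at 51.4, 36.5 and 44.8 CPM in mutants, against 153, 177, 162 and 190 CPM in wild-type/heterozygous libraries (3.86-fold lower), *myf6* was 3.21-fold lower, *myog* 2.12-fold and *mef2c* (ENSDARG00000009418) 2.76-fold. *myf5* had a log2 fold change of -0.57 (SE 0.835, adjusted p = 0.713) and was not called. It was barely detected, at 0.337, 0.326 and 0.306 CPM in mutants, against 0.442, 0.627, 0.175 and 0.671 CPM in wild-type/heterozygous libraries. The member called higher was *prdm1*, a gene of the slow fibre fate (1.81-fold). Of 17 tested myoblast fusion genes 10 were called lower (58.8%), beside 11.6% of all genes tested. The list's share of counts overlapped between genotypes, at 0.0515% to 0.0713% in mutants and 0.0649% to 0.0775% in wild-type/heterozygous libraries. Among those called lower were *mymk*, which encodes the fusion protein myomaker (1.91-fold), *jam2a* (2.12-fold), *cdh2* (1.55-fold), *jam3* (ENSDARG00000114589, 2.28-fold) and *kirrel1* (ENSDARG00000056998, 2.67-fold). The count of lower calls was 5 without mutant replicate 2, where *jam3* (adjusted p = 0.0543) and *kirrel1* (0.0871) were lost. Of the fits that left out 1 library, *kirrel1* was called only in that without wild-type/heterozygous replicate 3. With library totals 2 fusion genes were called lower and 2 higher, and *jam2a* alone of those named here was still called.

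Energy genes fell in part, and several of these calls rested on the scaling or on single libraries. Of 37 glycolysis and phosphagen genes 19 were called lower (51.4%), a share within the range of the abundant and mid-level genes, and 3 higher, with a median of -0.59. With library totals the counts were 12 lower and 7 higher, and the median was -0.20. *ckmb* (ENSDARG00000040565), the muscle creatine kinase gene, was at 8932, 8063 and 14142 CPM in mutants, against 18932, 20508, 17518 and 17515 CPM in wild-type/heterozygous libraries (1.79-fold lower), an *aldoa* gene (ENSDARG00000011665) was 2.65-fold lower and a *pfkm* gene (ENSDARG00000014179) 2.6-fold. A *pkm* gene (ENSDARG00000099860), which encodes muscle pyruvate kinase, was 2.83-fold lower. *ldha*, the lactate dehydrogenase gene of anaerobic glycolysis, went the other way and was 2.45-fold higher. Of 97 nuclear genes of the respiratory chain 61 were called lower (62.9%) and none higher, with a median of -0.58. That share stands near the 58.8% of abundant genes and above the 43.1% of mid-level genes. The count of 61 became 35 without mutant replicate 1, 29 without mutant replicate 2, and 15 with library totals, where the median was -0.19. The ATP synthase gene *atp5f1b* was 1.59-fold lower. The low-level subunit genes *cox6a1* (ENSDARG00000054588) and *ndufa4l2* were at log2 fold changes of -2.35 and -3.60, both called, and *cox4i2* at -1.95 was not (adjusted p = 0.0657). The call of *ndufa4l2* was lost without mutant replicate 2 (adjusted p = 0.0543), and *cox4i2* was called there (-3.13). *cox4i2* was also called with DESeq2 (adjusted p = 0.0124) or with at least 10 counts in every library (0.0318). Of 13 mitochondrially encoded genes 8 were called lower (61.5%), again near the share of abundant genes, with a median of -1.11. With library totals 6 were called lower and the median was -0.72. The list's share of counts overlapped between genotypes, at 1.4% to 1.57% in mutants and 1.31% to 2.47% in wild-type/heterozygous libraries. *mt-nd1*, a complex I gene, was at 221, 169 and 225 CPM in mutants, against 370, 827, 548 and 514 CPM in wild-type/heterozygous libraries (2.75-fold lower), and *mt-atp6* and *mt-atp8*, whose reading frames overlap, were 2.58-fold and 2.64-fold lower. *mt-co1* was at 3302, 2974 and 3849 CPM in mutants, against 3628, 7699, 5437 and 4831 CPM in wild-type/heterozygous libraries, ranges that overlap, and was not called (log2 fold change -0.68, adjusted p = 0.0575). It was called without wild-type/heterozygous replicate 1 (-0.83). It was also called with DESeq2 (adjusted p = 0.0108), upper-quartile factors (0.0427) or at least 10 counts in every library (0.0356).

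Ribosomal protein genes had a median log2 fold change of -0.40, and -0.01 with library totals. Of 81 tested, 9 were called lower (11.1%), a share close to the 11.6% of all genes tested and below the 43.1% of mid-level genes. The count ran from 1 (without wild-type/heterozygous replicate 2 or 3 or mutant replicate 1 or 2) to 46 (without mutant replicate 4). *rpl3*, the member with the most counts, had a log2 fold change of -0.37 (SE 0.141, adjusted p = 0.0948). It was called without mutant replicate 4 (-0.53) or with DESeq2 (adjusted p = 0.0401). *rpl22l1* and *rpl29* were 1.84-fold and 1.62-fold lower. The call of *rpl29* was lost without mutant replicate 1 or 2 or wild-type/heterozygous replicate 2 or 3 (adjusted p up to 0.0851), and with library totals (-0.30, adjusted p = 0.192).

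**Figure D2:**
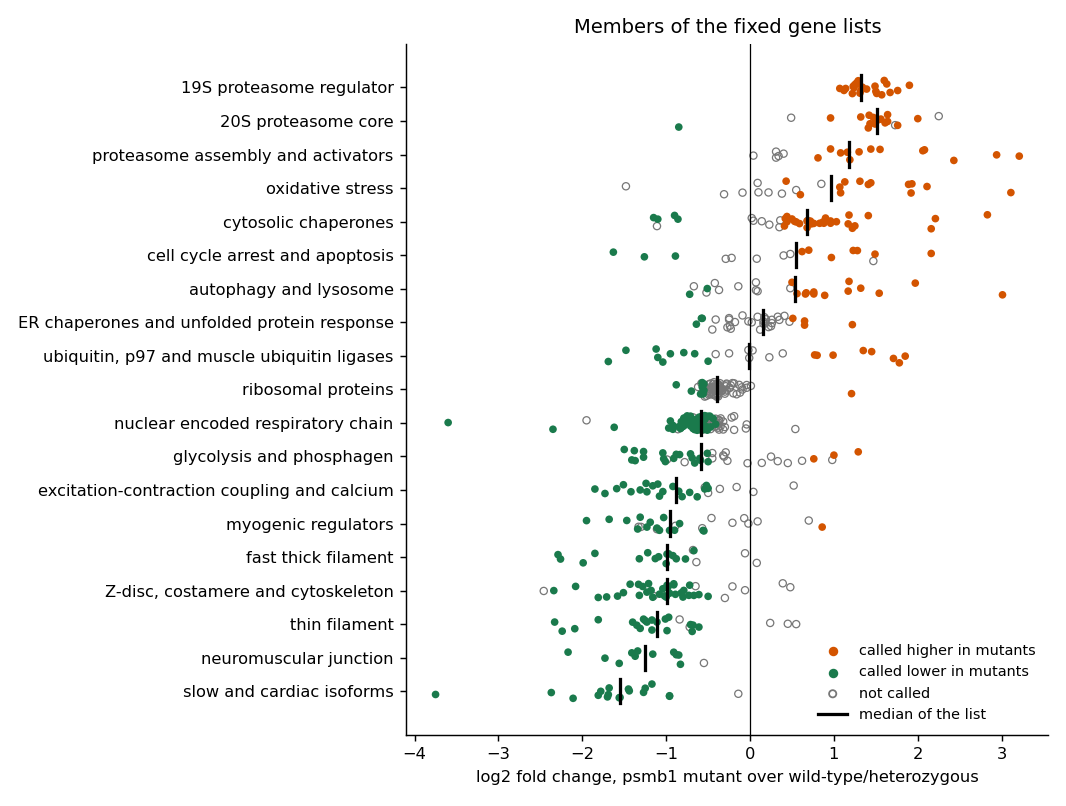
Log2 fold change of *psmb1* mutants over wild-type/heterozygous libraries (horizontal axis) for each tested member of 19 gene lists, filled orange where called higher, filled green where called lower and open where not called, with a bar at the list's median. The 3 proteasome lists have medians of 1.32, 1.51 and 1.17, and the slow and cardiac isoforms have a median of -1.56.

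The share of each library's own counts does not depend on the TMM factors. Shares add up to the whole library, so a fall in a large group of genes raises the others, as with library totals. The 3 proteasome lists together took 2.41%, 2.64% and 2.36% of the counts in mutants, against 0.652%, 0.682%, 0.804% and 0.689% in wild-type/heterozygous libraries, a ratio of 3.5. Cytosolic chaperones took 6.62%, 8.08% and 6.98% in mutants, against 3.47%, 3.33%, 3.94% and 3.72% in wild-type/heterozygous libraries. The fast thick, thin and slow and cardiac lists together took 22.3%, 19.4% and 25.3% in mutants, against 33%, 32.8%, 31.8% and 31.4% in wild-type/heterozygous libraries. The groups do not overlap in any of these. The shares of 11 of the 26 lists lay above, and of 9 below, every wild-type/heterozygous library. Among the 11 were the ER list, with 4 genes called higher and 3 lower, and the integrated stress response list, with 2 higher and 5 lower. By gene, the genotypes did not overlap for 6967 of the 20413 tested. An exact two-sided permutation test of 3 against 4 libraries cannot go below p = 0.0571. Each of the shares printed in this paragraph gave that value, so none could pass 0.05 (46 library measures were compared). The 10 most abundant genes of a library took 20.1% to 24.2% of the counts in mutants and 25.7% to 27.8% in wild-type/heterozygous libraries.

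**Figure D3:**
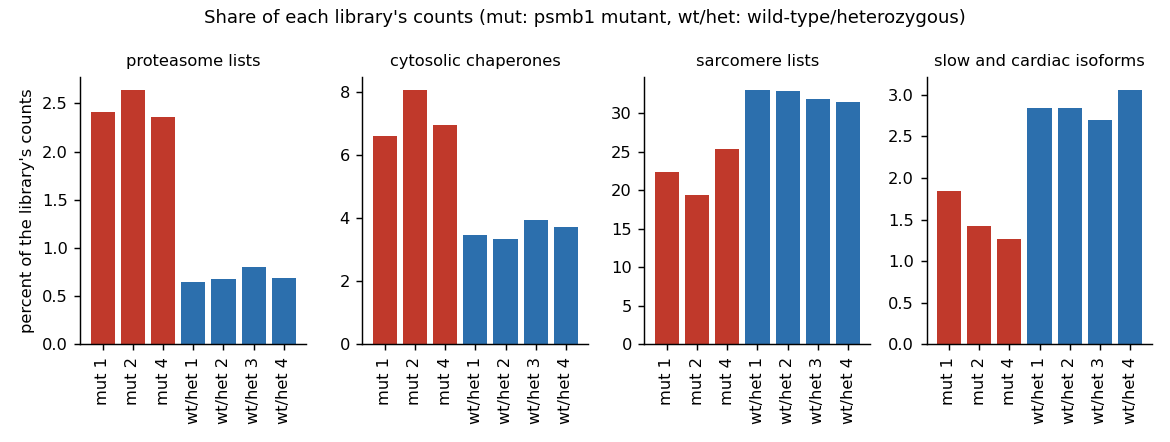
Percent of each library's counts (vertical axes, from 0) taken by 4 groups of gene lists in the 3 *psmb1* mutant libraries (red) and the 4 wild-type/heterozygous libraries (blue). The proteasome share is 2.36% to 2.64% in mutants and 0.652% to 0.804% in wild-type/heterozygous libraries, and the slow and cardiac share is 1.27% to 1.84% in mutants and 2.7% to 3.06% in wild-type/heterozygous libraries.

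Markers of other cell types were measured in the same libraries, and their part in the muscle results was not tested. Epidermis markers took 0.412% to 0.536% of the counts in mutants and 0.219% to 0.436% in wild-type/heterozygous libraries, with 1 of 10 tested called higher and 1 lower. The keratin gene *krt4* was at 2396, 3016 and 3642 CPM in mutants, against 3579, 2009, 3205 and 3557 CPM in wild-type/heterozygous libraries. Of 14 cartilage and neural crest markers none was called with the TMM factors and all 7 libraries, and 1 was called higher with library totals. *matn4* was called in 1 of the fits that left out 1 library. The list took 0.0559% to 0.0883% of the counts in mutants and 0.0268% to 0.0776% in wild-type/heterozygous libraries. *sox10* was between 1.95 and 2.65 CPM in mutants and between 0.358 and 6.11 CPM in wild-type/heterozygous libraries. Of 7 tested tendon markers 5 were called lower (71.4%, beside 11.6% of all genes tested), although 2 of the 7 are *xirp2* genes that muscle also expresses. Their share was 0.0252% to 0.0326% in mutants and 0.0429% to 0.0597% in wild-type/heterozygous libraries, for the tendon list as a whole. Most of this share came from 1 *xirp2* gene (ENSDARG00000071113), at a mean of 225 CPM in mutants and 511 CPM in wild-type/heterozygous libraries. The libraries overlap for the called *thbs4* (ENSDARG00000020072) and *fmod* (ENSDARG00000044895) genes. Their calls held in 1 and 2 of the 7 fits that left out 1 library. *tnmd*, the tenomodulin gene, was at 0.258, 1.53 and 1.17 CPM in mutants, against 4.67, 2.36, 8.63 and 2.17 CPM in wild-type/heterozygous libraries, a call lost without any single library other than wild-type/heterozygous replicate 2 or 4 (adjusted p up to 0.132). With library totals 1 tendon marker was called lower. All 4 tested members of the cardiac muscle list were called lower, with a share of 0.293% to 0.578% in mutants and 0.635% to 0.797% in wild-type/heterozygous libraries, and all 4 are also on the slow and cardiac isoform list. Its members *myl7*, *cmlc1* and *nppa* did not pass the filter and went the other way in mutant replicate 4. They were at 42.8, 16.5 and 4.55 CPM of the library total there, against at most 0.28 CPM in any other library. Of 12 tested retina and lens markers, 5 were called lower and 2 higher, with a share of 0.0275% to 0.0553% in mutants and 0.0171% to 0.0607% in wild-type/heterozygous libraries. With library totals 1 was called lower and 2 higher, and of the 5 lower calls that of *gnat1* alone held in each fit that left out 1 library. The lens crystallin gene *crybb1* was at 159, 72.3 and 142 CPM in mutants, against 13.1, 7.97, 9.91 and 31.4 CPM in wild-type/heterozygous libraries, and the rod transducin gene *gnat1* was at 0.872, 0.697 and 0.748 CPM in mutants, against 11.3, 27, 8.09 and 2.46 CPM in wild-type/heterozygous libraries. The shares of the neuron, bone, red blood cell, leukocyte, endothelium, pigment cell and glia lists overlapped between the genotypes, with at most 1 member called in either direction in each. With library totals 4 neuron and 4 leukocyte markers were called higher. Leukocyte markers had a median log2 fold change of 1.71, with 7 of 8 tested above 0, and took 0.00169% to 0.00547% of the counts in mutants and 5.93e-04% to 0.00176% in wild-type/heterozygous libraries.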

How the data were processed

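RNA-Seq of *mylz2*+ cells used full-length cDNA amplified with the SMART-Seq HT kit and Nextera XT libraries. The authors aligned reads to GRCz11 with STAR and deposited whole-number counts for 32520 Ensembl identifiers, without normalization. The counting tool and its strand setting are not given in the sources used here, so overlapping, antisense and near-identical genes are uncertain. Symbols come from a table that pairs 29201 of these identifiers (19368 of the 20413 tested), partly by human ortholog names. They are printed in lower case, with the identifier where several share a symbol.

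Mutants were compared with wild-type/heterozygous libraries with edgeR 4.0.16 (R 4.3.3), by TMM scaling, the default filter, the quasi-likelihood test and Benjamini-Hochberg adjustment. The *sox10*+ libraries were not used here. The labels do not tie same-numbered libraries to shared larvae. P-values set the difference between genotypes against the spread between these pools, and the labels do not say which clutch a pool came from. The alternatives were DESeq2 1.42.0, RLE, upper-quartile and library-total scaling, other filters, thresholds and tier limits, replicate blocks and leaving out each library. Shares of counts and other measures of a library were set against each other by exact permutation (scipy 1.17.1). Python 3.11.15 with pandas 2.3.3 wrote the tables, and matplotlib 3.10.9 drew the plots.

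Of 675 list entries 13 had no match. The genes, lists and tests were chosen with earlier results of these data known. By rule the text names *psmb1* and, among called genes whose libraries do not overlap, the 8 largest rises and falls of abundant genes, the 10 of mid-level genes and the 5 largest gains and losses in CPM. It adds up to 4 members per list, the most abundant and those that changed most. Other members named with a list, and genes said to be so, were chosen after their values were seen. A few of the genes so chosen are not reported here.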

Additional observations from a re-analysis of the deposited data

Results flagged for a closer look

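In 10 of 219 measures tested over the 4 wild-type/heterozygous libraries, 1 library stood apart from the other 3 by Dixon's criterion, that is by a gap to the nearest library that made up most of the range. Chance alone flags about 1 in 20 such groups. Wild-type/heterozygous replicate 1 had the lowest share of counts from genes of cell cycle arrest and apoptosis, at 0.125%, against 0.144% to 0.147% in the others. Wild-type/heterozygous replicate 2 had the lowest share from epidermis markers, at 0.219%, against 0.404% to 0.436% in the others. The same library was highest for *myf6*, at 29.2 CPM against 25 to 25.6 CPM, and for *psmb13a*, at 0.376 CPM against 0 to 0.0553 CPM. It was lowest for ENSDARG00000112287, at 1151 CPM against 1819 to 1953 CPM, which still lay above the mutants at 351, 130 and 250 CPM. It was also highest for *acte1*, at 1188 CPM against 884 to 922 CPM, and for *atf4a*, at 194 CPM against 130 to 138 CPM. Wild-type/heterozygous replicate 1 was lowest for *nrdc*, at 105 CPM against 120 to 122 CPM, and for *plaa*, at 76.3 CPM against 89.9 to 90.8 CPM. For *scd*, which encodes a fatty acid desaturase, wild-type/heterozygous replicate 4 was highest at 0.248 CPM, against 0 to 0.0138 CPM in the others.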

How the results depend on the processing

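Over all genes tested, 4553 were called, and 6753 had p under 0.05 before adjustment. A threshold of 0.01 on the adjusted p left 2587, and a change of 2-fold or more in addition to 0.05 left 2386. The count was 3145 to 4333 when 1 library was left out. It was 5970 with DESeq2 and 5469 with library totals. Of 74 abundant genes called, 36 changed by 2-fold or more, and 60 to 79 were called when 1 library was left out. With a limit of 500 CPM in place of 1000, 151 abundant genes were called. Of 694 mid-level genes called, 273 changed by 2-fold or more, 586 to 713 were called when 1 library was left out, and 1222 were called between 50 and 500 CPM. Of the called genes, 58 of 74 abundant and 501 of 694 mid-level ones were also called, in the same direction, with library totals, and 74 and 693 with DESeq2. Of 149 genes chosen for description that were called, none changed direction under any alternative listed here. All 149 kept their call with DESeq2, RLE or upper-quartile factors and with no filter, 147 of 147 with at least 10 counts in every library, 131 with library totals, and 132 in every fit that left out 1 library. With the replicate number as a block, 136 kept it by column names and 142 by sample titles. Calls lost by column names included *myl11* (ENSDARG00000053254, adjusted p = 0.106), *ckmb* (0.0532), *hsp70.3* (0.164) and *hspa2* (0.163).

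Deviations of same-numbered libraries correlated between -0.0144 and 0.02, so no shared deviation was seen. Such values cannot tell whether same-numbered pools were collected or sorted together. With the replicate number as a block, the count of genes called was 3286 by column names and 3742 by sample titles, which number mutant replicate 2 as 3. The count of abundant genes called was then 50 and 67, and that of mid-level genes 573 and 647.

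With 3 and 4 pools per genotype and amplified cDNA from 1500 cells, genes near the floor are poorly measured, and a gene that was not called is not shown to be equal between the genotypes. Levels carry no correction for length or GC content.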

Other observations

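Several mid-level genes outside the fixed lists rose beside the proteasome and were chosen after their values were seen. Among peptidase genes, *thop1*, which encodes a cytosolic oligopeptidase known to cut peptides released by the proteasome, was at 431, 447 and 511 CPM in mutants, against 123, 136, 139 and 125 CPM in wild-type/heterozygous libraries (3.53-fold). The aminopeptidase gene *blmh* was at 231, 269 and 280 CPM in mutants, against 78.7, 99.8, 94.1 and 88.8 CPM in wild-type/heterozygous libraries (2.88-fold), and *nrdc* (ENSDARG00000019596) was 2.61-fold higher. *plaa*, which encodes a ubiquitin-binding partner of p97, was at 297, 278 and 308 CPM in mutants, against 76.3, 90.7, 89.9 and 90.8 CPM in wild-type/heterozygous libraries (3.38-fold), and *zfand2b*, which encodes a proteasome-associated zinc finger protein, was 3.1-fold higher. The Hsp90 co-chaperone gene *stip1* was at 873, 994 and 1003 CPM in mutants, against 288, 395, 410 and 359 CPM in wild-type/heterozygous libraries (2.63-fold). Among the falls, *acte1*, an actin gene, was at 203, 186 and 326 CPM in mutants, against 884, 1188, 895 and 922 CPM in wild-type/heterozygous libraries (4.08-fold lower), and *smpx*, which encodes a small muscle protein, was at 207, 175 and 162 CPM in mutants, against 595, 751, 630 and 731 CPM in wild-type/heterozygous libraries (3.73-fold lower).

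Of 24 tested cell cycle genes 6 were called lower (25%) and 1 higher (4.17%), beside 11.6% and 10.7% of all genes tested. The median log2 fold change was -0.78, and -0.37 with library totals. The replication genes *pcna* and *mcm5* were 1.92-fold and 2.73-fold lower, and *mcm3* was 2.18-fold lower, a call lost without mutant replicate 4 (adjusted p = 0.0513). The calls of *pcna* (adjusted p = 0.097) and *mcm3* (0.134) were lost with library totals. The count of lower calls was 3 without wild-type/heterozygous replicate 1 or 3 or mutant replicate 1, 2 without mutant replicate 4, and 1 with library totals. The member called higher was an *mcm6* identifier (ENSDARG00000033231) at 1.3, 2.21 and 1.01 CPM in mutants, against 0, 0, 0.102 and 0.0875 CPM in wild-type/heterozygous libraries, a call lost without mutant replicate 2 (adjusted p = 0.078). Of 19 circadian clock genes 7 were called lower (36.8%) and 2 higher (10.5%), with a median of -0.44, and -0.03 with library totals. *nr1d2a*, a repressor gene of the clock, was at 86.3, 62.2 and 72.7 CPM in mutants, against 185, 176, 173 and 229 CPM in wild-type/heterozygous libraries (2.59-fold lower), and a *per1* gene (ENSDARG00000056885) was 2.94-fold lower. *nr1d1* and *dbpa*, at -1.33 and -1.63, were not called (adjusted p = 0.0544 and 0.137), although *nr1d1* was without wild-type/heterozygous replicate 3 (-1.58). *nr1d1* was also called with DESeq2 (adjusted p = 0.0122), upper-quartile factors (0.0494), no filter (0.0485) or at least 10 counts in every library (0.0302). A block by column names called it too (0.017).

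Of 23 immediate early genes 6 were called lower (26.1%) and 4 higher (17.4%), beside 11.6% and 10.7% of all genes tested. The median was -0.31, and 0.10 with library totals, where 1 was called lower and 7 higher. The 4 higher calls became 2 without any single mutant library. *fosl1* was at 156, 162 and 150 CPM in mutants, against 56.5, 55.8, 80.8 and 92.2 CPM in wild-type/heterozygous libraries (2.19-fold), *ier5* was 1.96-fold lower, *ier2b* was 1.79-fold lower, a call lost without mutant replicate 2 (adjusted p = 0.0536) or with library totals (0.118), and *jun* was at 2037, 1809 and 1724 CPM in mutants, against 1841, 2456, 2080 and 2244 CPM in wild-type/heterozygous libraries and not called. Of 25 genes of the amino acid and integrated stress response 2 were called higher (8%) and 5 lower (20%), beside 10.7% and 11.6% of all genes tested. The median was -0.09, and 0.32 with library totals, where 8 were called higher and 1 lower. The 5 lower calls became 2 without mutant replicate 2 and 3 without mutant replicate 4. *cebpb* was at 212, 191 and 191 CPM in mutants, against 86, 105, 110 and 92.1 CPM in wild-type/heterozygous libraries (2.01-fold). *atf3* was at 769, 895 and 794 CPM in mutants, against 539, 696, 703 and 907 CPM in wild-type/heterozygous libraries. It was not called, although it was with library totals (log2 fold change 0.61, adjusted p = 0.0261). *slc7a11*, at -1.12 (SE 1.56), was not called. An *eif4ebp3* gene (ENSDARG00000054916) was 1.88-fold lower, a call lost without mutant replicate 1 (adjusted p = 0.0505) or 2 (0.0501) or with library totals (0.128). Of 16 sterol and lipid synthesis genes 2 were called higher (12.5%) and 1 lower (6.25%), near or under the 10.7% and 11.6% of all genes tested, with a median of 0.42. *acaca*, which encodes the first enzyme of fatty acid synthesis, was 3.8-fold higher. *scd* was at 1.18, 1.12 and 0.363 CPM in mutants, against 0.0138, 0, 0 and 0.248 CPM in wild-type/heterozygous libraries. It was not called, although it was without wild-type/heterozygous replicate 4 (log2 fold change 7.12 in place of 3.72) or with DESeq2 (adjusted p = 0.0442).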
